A study of Mus musculus with 15 samples.

Results

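The heat shock chaperones of the cytosol and the mitochondria are described here in kidneys of mice that lacked Grhl1 and of wild-type mice. They are 38 genes chosen by name and by role: the HSP70, HSP110, HSP40 and HSP90 families, their co-chaperones, small heat shock proteins, mitochondrial chaperones, subunits of the cytosolic chaperonin and 2 heat shock factors. Each gene was read from the array's probe sets annotated to it alone, and from the brightest of these where there were several. Of the 38 genes, 34 had such a probe set, among 22180 genes and 23521 probe sets tested. Dnaja1, Hsp90ab1, Stub1 and Hsf1 had none and are not described by value.

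Kidney RNA came from 8 Grhl1-/- mice, replicates 8 to 15, and 7 Grhl1+/+ mice, replicates 1 to 7, all about 6 months old, with 1 array per mouse. The protein product of Grhl1 is a DNA-binding factor of the grainyhead family, known from epithelia. Not given in the sources used here are strain, sex, the deleted part of the gene and whether the deletion was confined to a tissue. Values are log2 intensities, and a difference is knockout minus wild type on that scale.

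Heat shock chaperones bind unfolded protein and help it to fold. HSP70 works in cycles driven by ATP: HSP40 proteins deliver the substrate and start hydrolysis, while HSP110 and BAG proteins release the nucleotide. HSP90 takes over partly folded clients from HSP70 through adaptors such as Stip1. Some members, such as Hspa1a and Hspa1b, are induced many-fold by heat or proteotoxic stress through heat shock factors, and others, such as Hspa8 and the chaperonin subunits, are made at all times. In kidney the inducible HSP70s and Hspb1 are known to rise after ischaemia and under osmotic stress.

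The samples differed in ways other than genotype. Y-linked transcripts could be read in 5 wild-type and 5 knockout kidneys, and were low in the other 5, wild-type replicates 6 and 7 with knockout replicates 13, 14 and 15. Xist, the transcript of the inactive X chromosome, read from 11.41 to 11.57 in those 5 and from 3.60 to 4.29 in all the others. By these transcripts the 5 kidneys were female and the others male, though the labels do not give sex. Knockout replicate 10 stood high in transcripts of liver, as did replicates 3 and 7 of the wild type. Those of adrenal cortex stood high in knockout replicates 10 to 13 and in replicates 2 and 3 of the wild type. The mean of 11 measured liver markers of 12 ran from 6.86 to 10.5 in wild-type and from 6.78 to 8.72 in knockout kidneys, and the mean of 8 adrenal cortex markers from 4.56 to 8.12 and from 4.70 to 9.29. The mean of 6 measured leukocyte markers of 7 ran from 8.17 to 8.93 and from 7.57 to 9.32, a difference of -0.46. All 6 read lower in knockout kidneys, against 45.4% of all probe sets. Of these, 2 had an unadjusted p under 0.05 (33.3%, against 2.06% of all probe sets on the lower side). They were Ighm at -1.19 and Jchain at -0.996 (limma adjusted p = 0.851 and 0.738). The mean of 7 brown fat markers ran from 7.78 to 8.42 in wild-type and from 8.07 to 8.89 in knockout kidneys. Of the 7, 6 were higher by value, as were 12831 of the 23521 probe sets tested. Among the 7 markers Ucp1, the uncoupling protein of brown fat, stood at 1.28 and the adipokine gene Lep at -0.68 (limma adjusted p = 0.274 and 0.610). The part of leukocyte and fat transcripts in the chaperone values was not tested. Kidney markers were high throughout, with means of 11 measured genes of 12 from 11.6 to 11.9 in wild-type and from 11.6 to 11.8 in knockout kidneys. Grhl1 itself read 5.09 ± 0.10 (SD, n = 7) in wild-type and 4.70 ± 0.16 (SD, n = 8) in knockout kidneys, without overlap (difference -0.38, limma adjusted p = 0.113). Its probe set was dim, above 28.6% of tested probe sets, so this difference may be understated.

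No member passed an adjusted p of 0.05 by genotype in limma, where 3 of 23521 probe sets (0.0128%) did. By value, 27 of the 34 measured members read lower in knockout kidneys, a share of 79.4% where 45.4% of all probe sets did. At an unadjusted p under 0.05 there were 12 members on the lower side, 35.3%, against 2.06% of all probe sets, and 0 on the higher side, against 3.49%. The 12 were Hspa1a, Hspa1b, Hspa8, Hsph1, Dnajb1, Dnajb4, Stip1, Cacybp, Chordc1, Bag3, Hspb1 and Hspb8. The median difference over the 34 members was -0.07, beside 0.0083 over all probe sets. In whole-kidney RNA, fewer cells of a type and less RNA per cell cannot be told apart.

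**Figure D1:**
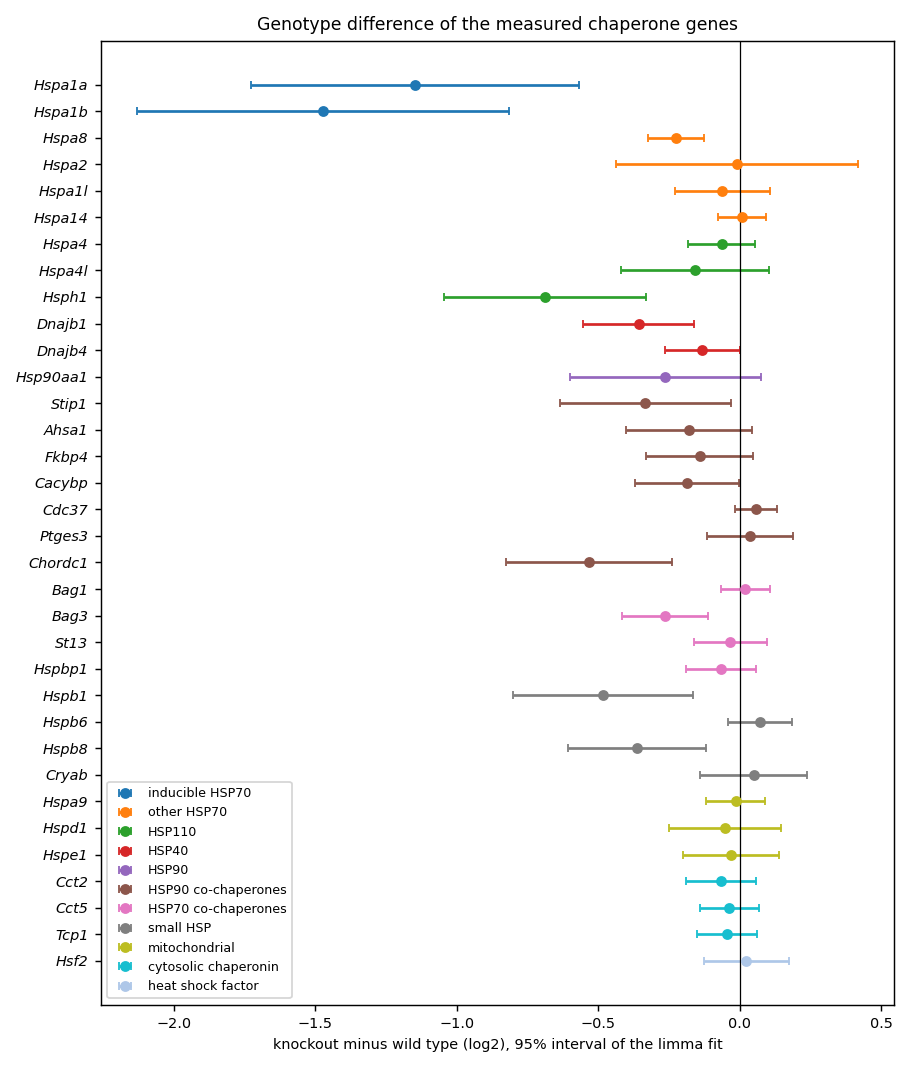
Difference of each of the 34 measured members, knockout minus wild type in log2 units (horizontal axis), with its 95% interval from limma, grouped by role. Hspa1b (-1.47) and Hspa1a (-1.15) lie farthest to the left, while mitochondrial chaperones and chaperonin subunits lie within 0.07 of 0.

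The 8 samples in which neither liver nor adrenal cortex transcripts were high, 4 of each genotype, gave 8 members lower at an unadjusted p under 0.05, where 1.76% of all probe sets were. These 8 members were all among the 12. The 8 samples are part of the 15 that picked the 12, so nothing is read from that overlap. Hspa1b stood at -0.98 and Hspb1 at -0.31 in these samples, less far from 0 than in all 15. Dnajb4 (-0.06), Stip1 (-0.34), Cacybp (-0.09) and Hspb8 (-0.19) were the others of the 12. With the mean of the liver markers as a covariate the count was 12, against 2.33% of all probe sets, and with that of the adrenal cortex markers it was 10, against 2.08%. Of these, 11 and 10 were among the 12 of the fit without a covariate.

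Heat shock factors bind a run of short inverted repeats, and promoters of the members were searched for its letters. RefSeq start sites on GRCm38.p6 were found for 31 of the 38 members, with 250 bases before and 50 bases from each start. A run of 3 alternating units, spelled GAANNTTCNNGAA or TTCNNGAANNTTC and searched on both strands, lay in the windows of 4 of these genes (12.9%), against 0.662% of 27025 genes. The 4 were Hsph1, Chordc1, Hspd1 and Hspe1. A run of 2 units, spelled GAANNTTC or TTCNNGAA, lay in 17 of the 31 (54.8%), against 17.0% of genes, and each longer run holds shorter ones. A match describes the letters in the window and not a bound site.

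Promoters of 5 members are printed because these genes mark the contrast in the values: Hspa1b, Hsph1, Chordc1 and Hspb1 differed between genotypes at an unadjusted p under 0.05, and Hspe1, with 2 overlapping runs of 3 units, did not. Each sequence holds 150 bases before the start and 30 bases from it, 5′ to 3′ on the gene's own strand, with matches in capitals.
Hspa1b: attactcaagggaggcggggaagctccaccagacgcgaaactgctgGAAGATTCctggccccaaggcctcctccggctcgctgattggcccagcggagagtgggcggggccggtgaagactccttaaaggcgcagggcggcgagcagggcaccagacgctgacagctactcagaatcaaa
Hsph1: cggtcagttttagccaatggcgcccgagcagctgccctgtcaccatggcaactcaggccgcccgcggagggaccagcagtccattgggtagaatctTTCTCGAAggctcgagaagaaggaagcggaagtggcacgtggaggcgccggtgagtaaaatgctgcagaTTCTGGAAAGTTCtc
Chordc1: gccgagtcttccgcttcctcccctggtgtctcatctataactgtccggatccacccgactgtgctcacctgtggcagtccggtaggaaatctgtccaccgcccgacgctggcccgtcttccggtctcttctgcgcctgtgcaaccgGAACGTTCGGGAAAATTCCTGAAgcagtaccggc
Hspb1: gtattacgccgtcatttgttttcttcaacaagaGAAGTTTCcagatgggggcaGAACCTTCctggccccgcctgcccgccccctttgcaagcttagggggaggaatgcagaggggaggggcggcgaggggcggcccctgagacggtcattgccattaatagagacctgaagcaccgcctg
Hspe1: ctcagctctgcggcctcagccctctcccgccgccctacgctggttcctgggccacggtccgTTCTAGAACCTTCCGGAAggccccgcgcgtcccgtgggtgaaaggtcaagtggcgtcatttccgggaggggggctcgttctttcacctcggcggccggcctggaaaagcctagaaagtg
These are chr17:34959209-34959388 on the minus strand for Hspa1b, chr5:149636286-149636465 on the minus strand for the downstream one of 2 listed starts of Hsph1, chr9:18292117-18292296 on the plus strand for Chordc1, chr5:135887769-135887948 on the plus strand for Hspb1 and chr1:55087998-55088177 on the plus strand for Hspe1.

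In Chordc1, 3 overlapping runs of 3 units began 4 bases before the start and 1 and 6 bases after it. Hspe1 held 2 that overlap, from 89 and 84 bases before its start. Hspd1 is transcribed away from Hspe1 on the opposite strand, and their windows shared 285 of 300 bases, so that the same run counts for both. Hspb1 had runs of 2 units at 117 and 97 bases before the start, and Hspa1b had 1 at 104. The windows of Hspa1a and Hspa1b were identical at 296 of 300 bases (98.7%). No match was found in the windows of Dnajb1, Stip1 or Cacybp. Hspa8 had no window and was not searched. Only exact units were counted, so a run with a changed letter in a unit would be missed.

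The inducible HSP70s, Hspa1a and Hspa1b, which lie side by side and encode nearly the same protein, showed the widest gap of all members. Hspa1b read 10.76, 10.98, 11.47, 9.39, 9.39, 10.02 and 9.32 in wild-type replicates 1 to 7. In knockout replicates 8 to 15 it read 9.10, 8.49, 8.26, 8.48, 8.26, 9.08, 8.96 and 9.09. Every knockout kidney lay below every wild-type kidney, as in Hspa8 and in no other member, where 0.0765% of all probe sets separated this way. Wild-type replicates 1, 2 and 3 stood above the rest. The means were 10.2 ± 0.88 (SD, n = 7) and 8.72 ± 0.38 (SD, n = 8), a difference of -1.47 (SE 0.31) or 2.77-fold lower. The exact permutation p was 0.000155, the smallest that 6435 splits can give, and the limma adjusted p was 0.244.

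Hspa1a read 9.77, 9.79, 10.78, 8.24, 8.92, 9.59 and 8.83 in wild-type replicates 1 to 7. It read 8.10, 8.14, 8.10, 8.34, 8.08, 8.40, 8.36 and 8.63 in knockout replicates 8 to 15. Wild-type replicate 4 lay within the knockout range and the other 6 wild-type kidneys above it. The knockout kidneys were close together, with an SD of 0.20 against 0.83 in wild type. The difference was -1.15 (SE 0.27), 2.22-fold lower (exact permutation p = 0.000777, limma adjusted p = 0.361). Probe sets of genes this alike may share signal, so the 2 readings are not independent and may not tell the copies apart. Hspa1l, the testis-enriched neighbour of the pair, differed by -0.06 (95% interval -0.23 to 0.11).

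**Figure D2:**
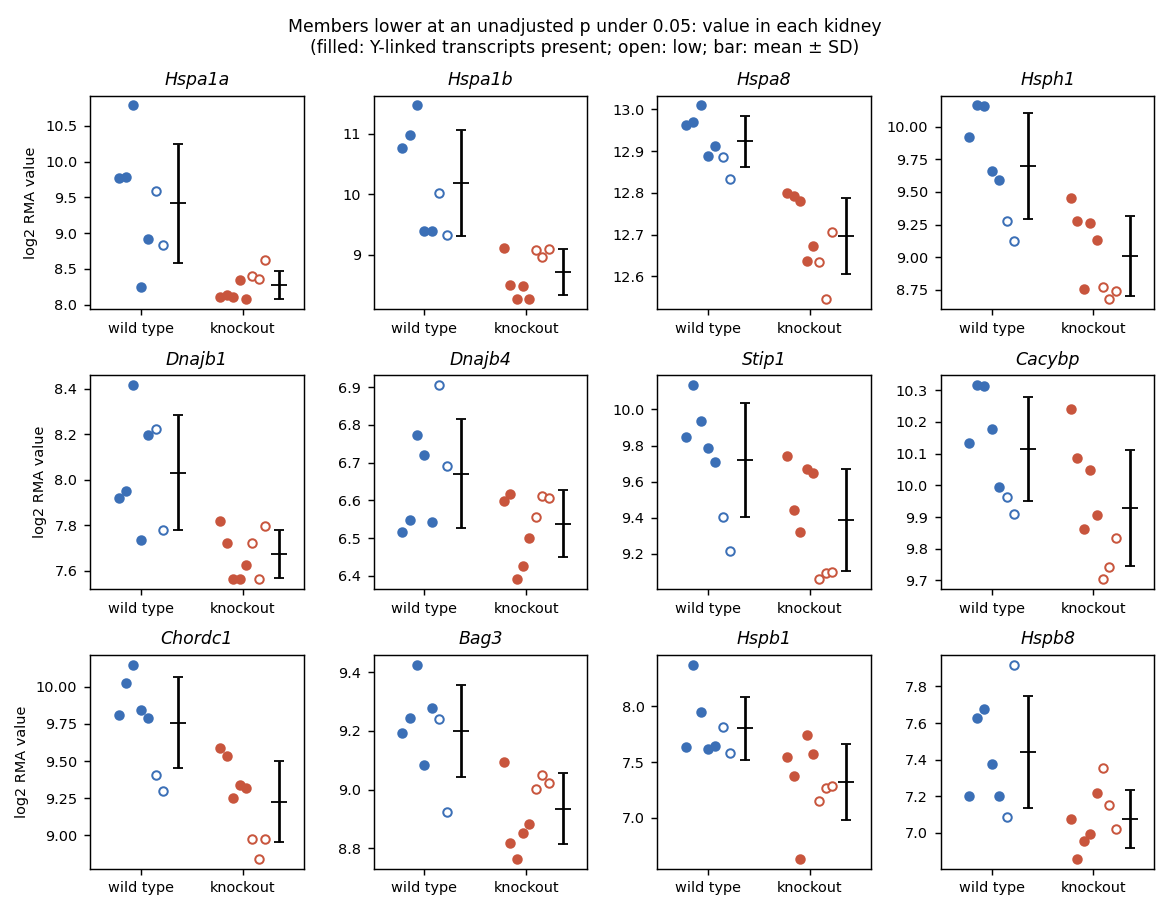
Log2 intensity (vertical axis) of members in each of the 7 wild-type and 8 knockout kidneys, 1 point per mouse, filled where Y-linked transcripts were present and open where they were low, with bars at the mean ± SD. The groups do not overlap for Hspa1b and Hspa8, and wild-type replicates 1 to 3 are the highest points for Hspa1b.

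Hspa8, the constitutive HSP70 that also strips clathrin from vesicles, was among the brightest transcripts, above 99.8% of tested probe sets. Its brightest probe set ran from 12.83 to 13.01 with a median of 12.91 in wild-type kidneys and from 12.55 to 12.80 with a median of 12.69 in knockout kidneys. The groups did not overlap, though they lay close together. The difference was -0.23 (SE 0.05), 1.17-fold lower (exact permutation p = 0.000155, limma adjusted p = 0.222). The other 3 probe sets of Hspa8 gave -0.49, -0.48 and -0.36 (limma adjusted p = 0.113, 0.163 and 0.361). In the first 2 of these the groups did not overlap either. Those 2 probe sets read nearly alike in every kidney, such as 9.86 and 9.87 in wild-type replicate 1, so they may not be independent readings.

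The inducible and the constitutive paralog were set against each other within each kidney, as Hspa1b minus Hspa8. This difference was 1.25 log2 units lower in knockout kidneys (change of -1.25, SD 0.83 among wild-type and 0.41 among knockout kidneys). The exact permutation p was 0.000155, the smallest possible. This used the brightest probe set of each gene. With the mean of each gene's probe sets the change was -1.08 (exact permutation p = 0.00839). It was the only pair tested, since Hsp90ab1 had no probe set of its own, and it was chosen with both genes' differences known. Without the samples with liver or adrenal cortex transcripts the change was -0.77 (exact permutation p = 0.0286, the smallest possible with 4 against 4 samples).

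The other HSP70 genes differed little by genotype. Hspa2, an HSP70 abundant in male germ cells, differed by -0.01 (95% interval -0.44 to 0.42). Hspa14, an HSP70 bound to the ribosome, differed by 0.0071 (95% interval -0.08 to 0.09).

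Among the HSP110 genes, nucleotide exchange factors of HSP70, Hsph1 had the widest gap. It ran from 9.13 to 10.16 with a median of 9.66 in wild-type kidneys and from 8.68 to 9.46 with a median of 8.95 in knockout kidneys. All 8 knockout kidneys lay below the wild-type median, but the groups overlapped, since wild-type replicates 6 and 7 lay within the knockout range. The difference was -0.69 (SE 0.17), 1.61-fold lower (exact permutation p = 0.00357, limma adjusted p = 0.381). Hspa4l differed by -0.16 and Hspa4 by -0.06 (limma adjusted p = 0.979 and 0.984).

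Dnajb1, the HSP40 that rises with heat and activates HSP70, ran from 7.73 to 8.41 with a median of 7.95 in wild-type kidneys and from 7.56 to 7.82 with a median of 7.67 in knockout kidneys. Of the 8 knockout kidneys, 6 lay below every wild-type kidney. The difference was -0.36 (SE 0.09), 1.28-fold lower (exact permutation p = 0.00171, limma adjusted p = 0.446). Dnajb4, a related HSP40, ran from 6.52 to 6.90 with a median of 6.69 and from 6.39 to 6.62 with a median of 6.58. Its groups overlapped more, and the difference was -0.13 (SE 0.06, exact permutation p = 0.0451, limma adjusted p = 0.896).

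Hsp90aa1, the inducible HSP90, ran from 8.09 to 8.86 with a median of 8.65 in wild-type kidneys and from 7.86 to 8.69 with a median of 8.39 in knockout kidneys. The groups overlapped over most of their range. The difference was -0.26 (SE 0.16), with an exact permutation p of 0.148 and a limma adjusted p of 0.969.

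Of the 7 HSP90 co-chaperones, 5 read lower by value (71.4%, against 45.4% of all probe sets). Of these, 3 had an unadjusted p under 0.05, which is 42.9% of the 7, against 2.06% of all probe sets. Chordc1, a zinc-binding HSP90 partner that rises with heat, ran from 9.30 to 10.15 with a median of 9.81 in wild-type kidneys and from 8.84 to 9.59 with a median of 9.28 in knockout kidneys. All 8 knockout kidneys lay below the wild-type median, and wild-type replicates 6 and 7 lay within the knockout range. The difference was -0.53 (SE 0.14), 1.45-fold lower (exact permutation p = 0.00513, limma adjusted p = 0.446).

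Stip1, the adaptor that joins HSP70 to HSP90, ran from 9.22 to 10.13 with a median of 9.79 and from 9.06 to 9.74 with a median of 9.38 (difference -0.33, SE 0.14, exact permutation p = 0.0522, limma adjusted p = 0.871). Cacybp, a partner of calcyclin with an HSP90-binding fold, ran from 9.91 to 10.32 with a median of 10.13 and from 9.70 to 10.24 with a median of 9.88 (difference -0.19, SE 0.09, exact permutation p = 0.0614, limma adjusted p = 0.895). In both, the highest knockout kidney was replicate 8. Ahsa1, which stimulates the ATPase of HSP90, differed by -0.18, and Fkbp4, an immunophilin of steroid receptor complexes, by -0.14. Cdc37, which brings kinases to HSP90, differed by 0.06, and Ptges3, the p23 co-chaperone, by 0.04. The Ptges3 probe set was dim, above 23.6% of tested probe sets, so a difference there may be understated. Another 2 probe sets that Ptges3 shares with other genes were not read. All 8 knockout kidneys lay above the wild-type median of Cdc37 (exact permutation p = 0.0159, limma adjusted p = 0.969).

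Bag3, which couples HSP70 to selective autophagy, ran from 8.93 to 9.42 with a median of 9.24 in wild-type kidneys and from 8.76 to 9.09 with a median of 8.94 in knockout kidneys. Wild-type replicates 4 and 7 lay within the knockout range and the other 5 above it. The difference was -0.26 (SE 0.07), 1.20-fold lower (exact permutation p = 0.00389, limma adjusted p = 0.485). The other HSP70 co-chaperones differed by 0.02 for Bag1, -0.03 for St13 and -0.07 for Hspbp1.

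The small heat shock proteins, which hold unfolded protein without ATP, divided evenly by sign. Hspb1 ran from 7.58 to 8.37 with a median of 7.65 in wild-type kidneys and from 6.63 to 7.74 with a median of 7.33 in knockout kidneys. Knockout replicate 11 was the single knockout kidney above the lowest wild-type value, and knockout replicate 10 was the lowest of all. The difference was -0.48 (SE 0.15), 1.40-fold lower (exact permutation p = 0.00559, limma adjusted p = 0.646). A second, dimmer probe set of Hspb1 differed by -0.0010 (95% interval -0.18 to 0.18).

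Hspb8, which works with Bag3, ran from 7.09 to 7.92 with a median of 7.38 in wild-type kidneys and from 6.86 to 7.35 with a median of 7.05 in knockout kidneys. Wild-type replicate 7 was the highest and replicate 6 the lowest of its group. The difference was -0.36 (SE 0.11), 1.29-fold lower (exact permutation p = 0.00995, limma adjusted p = 0.665). Hspb6 and Cryab, both abundant in muscle, differed by 0.07 and 0.05.

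The mitochondrial chaperones differed by at most 0.05 between genotypes. Hspd1, the chamber of the mitochondrial chaperonin, ran from 11.49 to 12.001 with a median of 11.88 in wild-type kidneys and from 11.49 to 11.93 with a median of 11.78 in knockout kidneys. Hspe1, its lid, ran from 7.23 to 7.70 with a median of 7.58 and from 7.24 to 7.62 with a median of 7.48. In both, the groups covered nearly the same range. The differences were -0.05 for Hspd1 (95% interval -0.25 to 0.14), -0.03 for Hspe1 (-0.20 to 0.14) and -0.02 for Hspa9, the mitochondrial HSP70 (-0.12 to 0.09).

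The chaperonin subunits Cct2, Cct5 and Tcp1, which fold actin and tubulin, differed by -0.07, -0.04 and -0.05, with 95% intervals within -0.19 and 0.07. Hsf2, a heat shock factor that acts in development and alongside Hsf1, differed by 0.02 (95% interval -0.13 to 0.17).

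Setting the members of a kidney side by side, the 12 members lower at an unadjusted p under 0.05 were all below their wild-type means in 7 of the 8 knockout kidneys, and 10 of them were in knockout replicate 8. This count describes the members that the same comparison picked, and nothing is read from it. In wild-type kidneys it ran from 0 in replicate 3 to 10 in replicate 7. Over all 34 members the median deviation from the wild-type mean ran from -0.13 to 0.09 in wild-type kidneys and from -0.22 to 0.01 in knockout kidneys. The lowest medians, from -0.22 to -0.17, were those of knockout replicates 10, 13, 14 and 15.

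**Figure D3:**
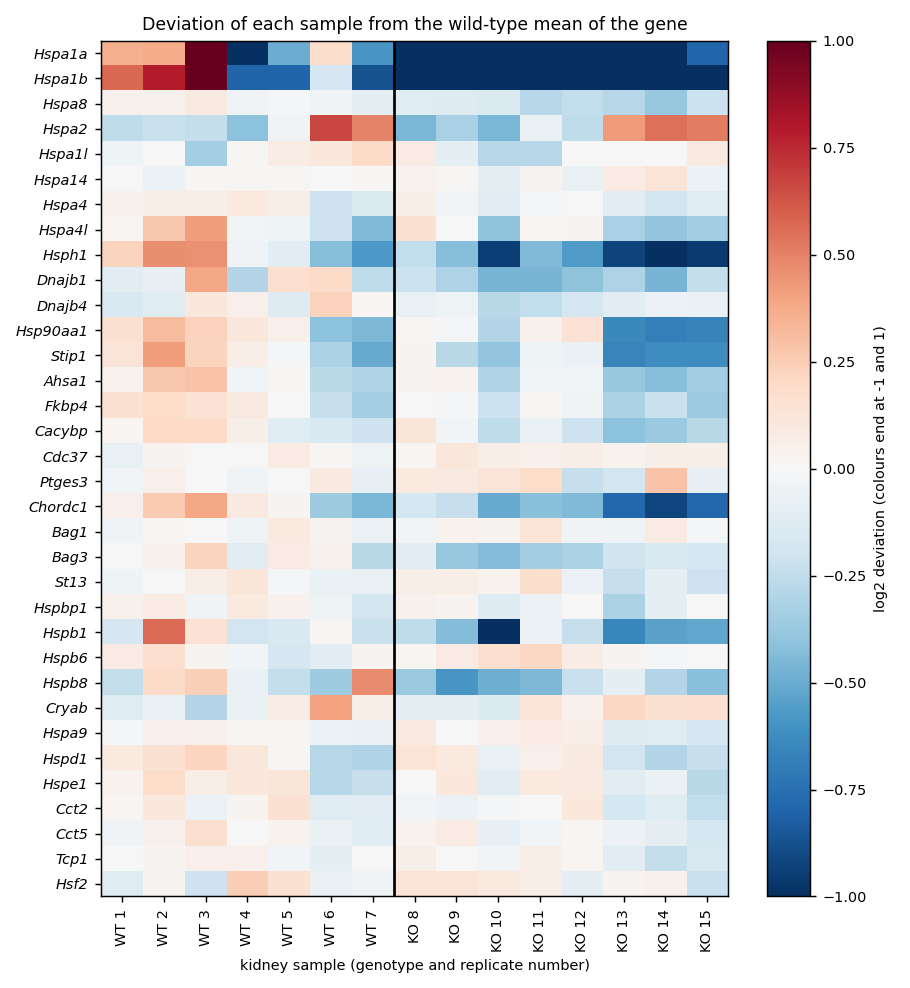
Deviation of each measured member (rows) from its wild-type mean in each of the 15 kidneys (columns), as a colour scale in log2 units that ends at -1 and 1. Hspa1a and Hspa1b are high in wild-type replicates 1 to 3, and knockout replicates 13 to 15 hold low values over many HSP90 co-chaperones.

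Part of the spread among members followed the presence of Y-linked transcripts, which crosses genotype and, with Xist, marks sex. In a fit with genotype and this presence as factors, added after the data had been seen, 18 of 34 members differed by presence at a limma adjusted p under 0.05, where 24.9% of all probe sets did. Of these, 16 were lower without Y-linked transcripts, against 10.6% of all probe sets, and 2 were higher, against 14.4%. In 8 members the 10 samples with and the 5 without these transcripts did not overlap, as in 11.5% of all probe sets. The 5 samples comprised 2 wild-type and 3 knockout kidneys.

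Hsp90aa1 fell by 0.63 without Y-linked transcripts (SE 0.06, limma adjusted p = 2.62e-06). Its 5 lowest kidneys, from 7.86 to 8.14, were those without them, and the others lay from 8.25 to 8.86. Hspd1 fell by 0.35 (SE 0.04, limma adjusted p = 3.61e-05), Stip1 by 0.52 (SE 0.08, adjusted p = 0.000126) and Hspe1 by 0.26 (SE 0.05, adjusted p = 0.00161) on the log2 scale. Chordc1 fell by 0.52 (adjusted p = 5.56e-05) and Hsph1 by 0.55 (adjusted p = 0.00223), so that these 2 members varied with both factors. The others that fell were Fkbp4, Ahsa1, Hspa4, Hspa4l, Hspa9, Cct2, Cct5, Tcp1, Cacybp and St13. Hspa2 rose by 0.81 without Y-linked transcripts (SE 0.07, limma adjusted p = 4.60e-07), with no overlap, and Cryab rose by 0.26 (SE 0.07, adjusted p = 0.0112).

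Of the 12 members lower by genotype at an unadjusted p under 0.05, Hsph1, Chordc1, Stip1 and Cacybp thus also differed by presence, and the other 8 missed the threshold for it in limma. The estimate by presence was 0.05 for Hspa1a (adjusted p = 0.924), -0.02 for Hspa1b (adjusted p = 0.978), 0.0018 for Dnajb1 (adjusted p = 0.993) and 0.01 for Bag3 (adjusted p = 0.942). It was -0.10 for Hspa8 (adjusted p = 0.0927), -0.14 for Hspb1 (adjusted p = 0.571), 0.13 for Hspb8 (adjusted p = 0.5002) and 0.13 for Dnajb4 (adjusted p = 0.133).

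With presence in the fit, 2 members passed by genotype, where 0.0638% of all probe sets did: Chordc1 fell by 0.49 (limma adjusted p = 0.0116) and Hsph1 fell by 0.64 (limma adjusted p = 0.0493). Hspa8 stood at -0.22 (adjusted p = 0.0566). With the mean of the Y-linked genes as a covariate in place of presence, 1 member passed, Chordc1 at -0.50, where 0.0595% of all probe sets did. Fitted in the 10 kidneys with Y-linked transcripts alone, 12 members were lower at an unadjusted p under 0.05, against 3.52% of all probe sets, and fitted in the other 5 alone, 8 were, against 2.83%. Of these, 10 and 7 were among the 12 picked in all 15 kidneys. In the first set Dnajb4 and Cacybp dropped out, and Hsp90aa1 and Fkbp4 came in. The genotype difference of Hspa1b was -1.88 in the first set and -0.62 in the second, and that of Bag3 was -0.36 and -0.06. Hspa1a gave -1.35 and -0.75, Hsph1 -0.72 and -0.47, Chordc1 -0.52 and -0.42 and Hspa8 -0.21 and -0.23. The test of the interaction between genotype and presence called 0 members in limma, with 1 of 34 (Bag3) at an unadjusted p under 0.05, where 7.04% of all probe sets were, so that these gaps were not shown to differ.

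**Figure D4:**
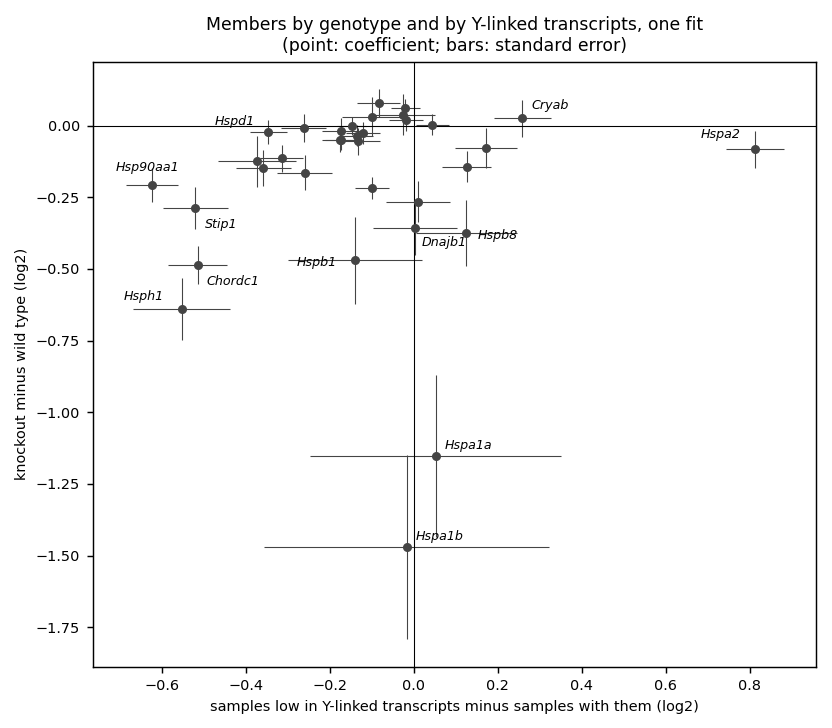
Genotype difference (knockout minus wild type) against the difference by Y-linked transcripts (without minus with) for the 34 measured members, both in log2 units from the fit with both factors, with bars for the standard error. Hspa1a and Hspa1b lie far from 0 by genotype and near 0 by Y-linked transcripts, and Hsp90aa1 (-0.63) and Hspa2 (0.81) lie far from 0 by Y-linked transcripts.

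How members varied within a genotype was described against Hsph1, which itself differed by Y-linked transcripts. Hsph1 was set against the other 33 members and Cirbp, a cold-induced RNA-binding protein, over 15 samples with genotype means removed, by permutation within genotype with 100000 resamples and adjustment over the 34 relations. Among the 33 members, 27 had an r above 0, where 52.7% of all other probe sets did, and the median r was 0.57. An adjusted p of 0.05 was passed by 19 members, 17 with r above 0 and 2 below, and 22.4% of all other probe sets had an r at least as large in size as the smallest of these 19. In the 10 samples with Y-linked transcripts 9 passed, where 1.12% of all other probe sets reached the smallest r among them in size, and the median r was 0.41.

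The members most like Hsph1 were Ahsa1 (Pearson r = 0.97, Spearman rho = 0.97, permutation adjusted p = 0.000113, r = 0.96 without wild-type replicates 2 and 7, the samples farthest from the median) and Hspa4l (r = 0.97, rho = 0.94, r = 0.95 without those 2). In the 10 samples with Y-linked transcripts r was 0.93 for both (permutation adjusted p = 0.0176 for both). Chordc1 had r = 0.93 and rho = 0.95 over all samples and r = 0.84 within the 10 (permutation adjusted p = 0.0310). For Hsp90aa1 r was 0.89 over all samples and 0.78 within the 10, where it missed the threshold (permutation adjusted p = 0.0679), and 0.40 there without the 2 farthest samples.

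The inducible HSP70s had lower r with Hsph1 over all samples. Hspa1a had r = 0.37 and rho = 0.30 (permutation adjusted p = 0.344 and 0.481), and r = 0.63 in the 10 samples with Y-linked transcripts (permutation adjusted p = 0.186). Hspa1b had r = 0.53 and rho = 0.53 (permutation adjusted p = 0.130 and 0.134), and r = 0.83 and rho = 0.89 in the 10 samples with Y-linked transcripts (permutation adjusted p = 0.0238 and 0.0274). Among the 7 wild-type kidneys r was 0.61 for Hspa1a and 0.82 for Hspa1b, and among the 8 knockout kidneys it was -0.55 and -0.19, a difference that was not tested. Both groups mix kidneys with and without Y-linked transcripts. In knockout kidneys the means with and without them were 9.18 and 8.73 for Hsph1, 8.15 and 8.47 for Hspa1a, and 8.52 and 9.04 for Hspa1b. The signs by genotype therefore cannot be told apart from this split. Dnajb1 had r = 0.27 and rho = 0.17 (permutation adjusted p = 0.501 and 0.704). Cryab and Hspa2 ran the other way, at r = -0.66 and r = -0.74, and within the 10 samples they stood at -0.28 and 0.06, so that those relations did not hold there. Cirbp had r = -0.64 and rho = -0.63 (permutation adjusted p = 0.0171 and 0.0218, r = -0.59 without the 2 farthest samples), and r = -0.54 within the 10 (permutation adjusted p = 0.272). By genotype Cirbp differed by 0.22 (limma adjusted p = 0.894).

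**Figure D5:**
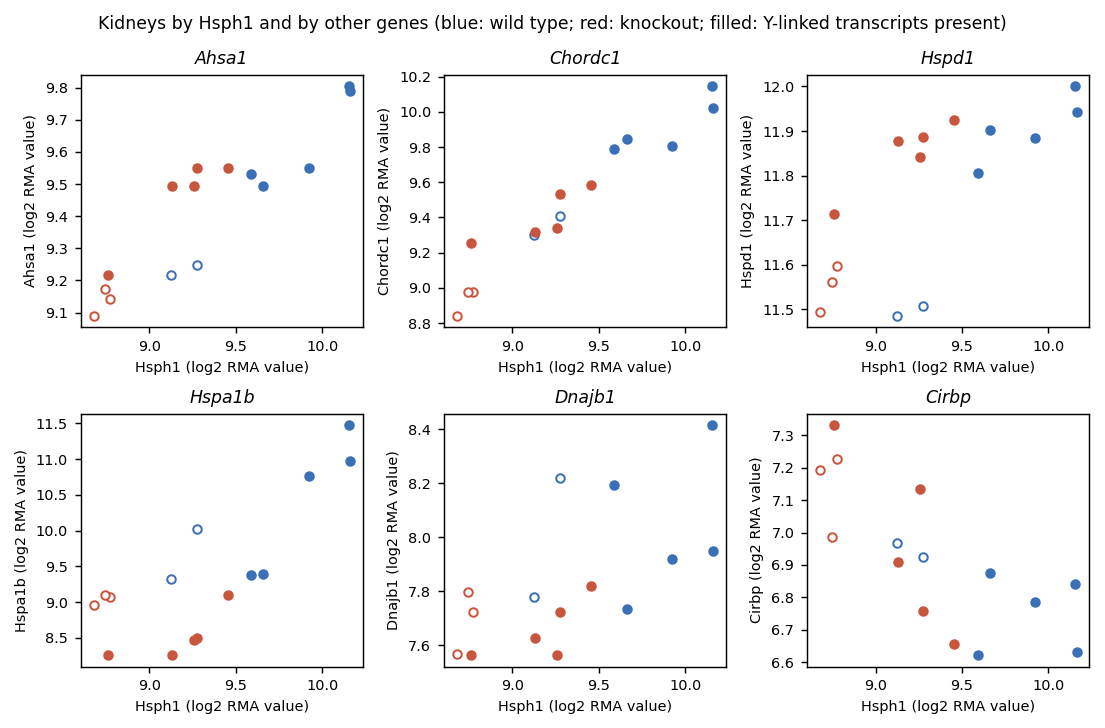
Log2 values of Ahsa1, Chordc1, Hspd1, Hspa1b, Dnajb1 and Cirbp (vertical axes) against Hsph1 (horizontal axes) in the 15 kidneys, wild type in blue and knockout in red, filled where Y-linked transcripts were present. Points of Ahsa1 and Chordc1 rise with Hsph1, those of Cirbp run the other way, and those of Dnajb1 are scattered.

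Other genes of protein folding gave a mixed picture, with 0 past the adjusted threshold in limma. Of 13 other HSP40 genes, 7 read lower (53.8%), near the 45.4% of all probe sets. Of these 13, 1 was lower at an unadjusted p under 0.05 (7.69%, against 2.06% of all probe sets). It was Dnajb2, a co-chaperone that sends HSP70 clients to the proteasome. Dnajb2 ran from 7.73 to 8.12 in wild-type and from 7.51 to 7.70 in knockout kidneys, without overlap (difference -0.28, SE 0.06, limma adjusted p = 0.222). Of 11 other HSP90 co-chaperones 7 read lower (63.6%), and 1 had an unadjusted p under 0.05 (9.09%), Ahsa2 at -0.42 (limma adjusted p = 0.788). Of 8 other BAG proteins and HSP70 co-chaperones 2 read lower (25%), with Bag2 at -0.14 (limma adjusted p = 0.894). Of 5 other genes listed by name as small heat shock proteins 1 read lower (20%), and Hspb11 stood at 0.23 (limma adjusted p = 0.843).

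Neither the 11 measured genes of other chaperonin and prefoldin subunits nor the 12 of other mitochondrial folding and proteolysis factors held a member at an unadjusted p under 0.05, and their medians were -0.03 and 0.0088. Among 7 other genes of the heat shock factor family and its response, Serpinh1, the collagen chaperone, stood at -0.22 (limma adjusted p = 0.701). In the endoplasmic reticulum, all 13 measured chaperones read lower, against 45.4% of all probe sets, with a median of -0.20. Of these, 6 had an unadjusted p under 0.05 (46.2%, against 2.06% of all probe sets on the lower side). Dnajb9 stood at -0.61, without overlap between the groups, and Manf at -0.40 (limma adjusted p = 0.138 and 0.181). Both adjusted p-values lay below that of any member's brightest probe set. Hspa5, the HSP70 of that compartment, stood at -0.50 (limma adjusted p = 0.361). Immediate early genes, which respond within minutes to handling and other stimuli, had means from 6.88 to 7.29 in wild-type and from 6.94 to 7.23 in knockout kidneys. Of the 14 measured, 11 read lower in knockout kidneys, 78.6% against 45.4% of all probe sets. Dusp1 was the 1 gene of these at an unadjusted p under 0.05 (7.14%, against 2.06% of all probe sets on the lower side). It stood at -0.30 (limma adjusted p = 0.610). With the immediate early mean as a covariate 14 members were lower at an unadjusted p under 0.05, against 3.04% of all probe sets. Of these 14, 11 were among the 12 of the fit without a covariate.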

How the data were processed

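Kidney RNA (500 ng per sample) was labelled with biotin by the Ambion WT Expression kit and hybridised to 15 arrays of 1 colour, 7 wild type and 8 knockout, per the labels' protocols. The deposited values are log2 intensities of probe sets, which the authors summarised by RMA, per the submitters' processing notes. RMA equalises the arrays' distributions and compresses dim probe sets toward background, so that differences of dim transcripts are understated. Not given in the sources used here are its software and version and the array's build. The table held 41345 probe sets from 1.28 to 13.90, with array medians from 5.51 to 5.59. Precision is limited by the number of arrays.

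Probe sets with exactly 1 gene symbol (23521) were tested, 1814 with several and 16010 unnamed ones were not. Symbols were updated by Entrez ID to RefSeq genes of GRCm38.p6 for 23328 of them. Genotype was tested in R 4.3.3 with limma 3.58.1 (lmFit and eBayes, no covariate, two-sided), with Benjamini-Hochberg adjustment over all 23521. Single members also had a two-sided exact permutation test, run in Python 3.11.15. The fit was tested on simulated data. Liver or adrenal cortex transcripts counted as high where the marker mean lay over 1 log2 unit above its median. Alternatives covered the variance model, filters, scaling, array weights, covariates, subsets and leaving out each sample.

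The members, gene lists and tests were chosen with earlier results of these data known. Values are described for members with an unadjusted p under 0.05 and for Hspa1a, Hspa1b, Hspa8, Hsph1, Dnajb1, Hsp90aa1, Hspb1, Hspd1 and Hspe1. Other members are given by their difference. From other lists, up to 4 genes with an unadjusted p under 0.05 could be named, and Dnajb9, Manf and Hspa5 stand for the endoplasmic reticulum. Promoters came from RefSeq on GRCm38.p6.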

Additional observations from a re-analysis of the deposited data

Results flagged for a closer look

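Within a genotype, the highest and the lowest sample of each of the 34 measured members were set against the rest, 68 groups in all, and 2 groups had a sample far from the others, where chance flags about 5% of groups. Hspa1l read 5.01 in wild-type replicate 3, below the 5.31 to 5.54 of the other 6 wild-type kidneys. Hspa14 read 7.20 in wild-type replicate 2, below the 7.26 to 7.27 of the others. Several of those others held the identical value 7.27165, so this flag rests on a very narrow spread. Knockout kidneys ran from 7.17 to 7.39 for Hspa14. Neither member differed between genotypes at an unadjusted p under 0.05 in limma.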

How the results depend on the processing

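The count of members past an adjusted p of 0.05 in limma was 0, and became 1 with the mean of the Y-linked genes as covariate (Chordc1, -0.50) and 2 with presence of Y-linked transcripts as a factor (Chordc1 and Hsph1), the alternative chosen after seeing the data. It was 0 under the other 29 alternatives, leaving out each sample included. The count of members lower at an unadjusted p under 0.05, 12, ran from 8 to 15 over the 31 alternatives and from 9 (without wild-type replicates 3 or 4, or knockout replicate 13) to 14 (without wild-type replicate 7) when 1 sample was left out. The median difference then ran from -0.10 to -0.06. Hspa1b minus Hspa8 ran from -1.38 to -1.05 leaving out 1 sample. It was -1.67 in samples with Y-linked transcripts and -1.08 with the mean of each gene's probe sets (exact permutation p = 0.00794 and 0.00839). The 12 members kept their sign in all 372 of these fits. Those fits reuse the samples that picked the 12, so nothing is read from that count. Of the 34 members, 24 kept their sign under every alternative that gave them a value.

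Members near 0 turned sign. Hspa14 was -0.0054 after quantile normalization and -0.013 in samples with Y-linked transcripts. Hspa2 was 0.00011 with array weights, 0.019 with the liver, 0.028 with the adrenal cortex and 0.14 with the immediate early covariate. It was 0.078 without samples holding liver or adrenal cortex transcripts, where Cryab was -0.040 and Hsf2 -0.034. Hsf2 was -0.0089 with array weights and -0.023 with the immediate early covariate. In samples with Y-linked transcripts St13 was 0.026, Hspa9 0.034 and Tcp1 0.0057. In those without, Hspa4 was 0.028, Cryab -0.060, Hspd1 0.054, Hspe1 0.11 and Hsf2 -0.00090. Leaving out 1 sample gave -0.090 to 0.10 for Hspa2, -0.0100 to 0.021 for Hspa14, -7.83e-05 to 0.12 for Cryab, -0.030 to 0.0064 for Hspa9, -0.080 to 0.0021 for Hspe1 and -0.012 to 0.063 for Hsf2. The cause was not tested.

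No paired analysis was possible because the 2 groups share no replicate numbers. The planned pair Hsp90aa1 and Hsp90ab1 was not run, since Hsp90ab1 had no probe set of its own. With dim probe sets left out, Hspa1l and Ptges3 had no value. Signal over background was not analysed here.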
